A study of Mus musculus with 24 samples.

Results

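Eomes, Batf, Foxp1, Bcl10, Pawr, Prkd2 and Kcnn4 are 7 genes best known from lymphocytes that were measured here in cultures of MC38, a colorectal cancer cell line of the C57BL/6 mouse, by RNA sequencing. They are taken from the genes that the article on these cells places under T cell terms among those that separated its MC38-COSMC KO line (called MC38-Tnhigh there) from its MC38-MOCK#1 line, and all 7 were found among the 52636 genes of the table. Because these 2 lines, and MC38-WT, took part in that choice, every difference that involves them is given below as a description without a test. Tests were kept to the other 5 lines, except that an alternative fit drew its variance from all lines. The article's choice did not use these 5 lines. The 7 genes were, however, picked with earlier results of these data known, so the tests are not fully independent of the choice.

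The table held 24 samples, 3 of each of 8 lines. MC38-WT was the parental line. MC38-CMAS KO carried a CRISPR-Cas9 knockout of Cmas, which makes the activated sialic acid that sialylation needs, MC38-COSMC KO a knockout of C1galt1c1 (COSMC), the chaperone of the enzyme that elongates the Tn antigen, and MC38-DKO both knockouts. MC38-MOCK#1 had received the Cas9 construct with no guide and was the reference of the knockout lines. MC38-FUT4 and MC38-FUT9 were made to switch on a fucosyltransferase gene with a transcription-activating dead Cas9, and MC38-MOCK#2 was their reference. All lines but MC38-WT were selected with puromycin. The knockouts were bulk transfected populations and not clones, and MC38-COSMC KO was also sorted 2 times for binding of a lectin. The 3 samples of a line were harvested at separate times, at passages 4 to 6 for MC38-MOCK#1 and the knockout lines, 6 to 8 for MC38-MOCK#2 and MC38-FUT9, 7 or 8 for MC38-FUT4 and 7 to 9 for MC38-WT, so p-values measure the spread between these harvests. Values are normalized counts, that is, reads per gene scaled to a common library size. The columns summed to 10911849 to 12263307, and about 6759106 to 16229893 reads per sample lay behind them, so that 1 read was worth 0.756 to 1.67 normalized counts.

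The targeted genes were read first. Cmas stood at 93 to 126 in MC38-CMAS KO and 122 to 142 in MC38-DKO, and at 272 or more in every other sample. C1galt1c1 stood at 124 to 163 in MC38-COSMC KO against 220 to 251 in MC38-MOCK#1, the line with the highest mean. MC38-COSMC KO overlapped MC38-CMAS KO at 152 to 215 and MC38-MOCK#2 at 154 to 217, which are not labelled as COSMC knockouts. At 166 to 206, MC38-DKO overlapped MC38-CMAS KO as well. The RNA of C1galt1c1 therefore checked neither COSMC knockout. The article reports DNA and enzyme assays for that of MC38-COSMC KO. Fut9 stood at 641 to 955 in MC38-FUT9. In the line labelled MC38-FUT4, Fut4 itself was at 0 or 1 in all 3 samples while Fut9 stood at 171 to 209. Fut9 was at 7 or below in all remaining lines. That line is therefore called the line labelled MC38-FUT4 where a direction is drawn from it.

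Eomesodermin (Eomes) is a T-box transcription factor of cytotoxic T cells and natural killer cells and is also used in the early embryo. BATF is a basic leucine zipper protein that pairs with JUN proteins and, in lymphocytes, binds with IRF4 or IRF8. FOXP1 is a forkhead repressor that keeps T cells quiescent and is expressed in many tissues. BCL10 links CARD-containing scaffold proteins to the protease MALT1 and so carries antigen receptor signals to NF-kB. PAWR (PAR-4) is a pro-apoptotic protein that binds atypical protein kinase C, PRKD2 is a protein kinase D that diacylglycerol and protein kinase C activate, and KCNN4 (KCa3.1) is the calcium-activated potassium channel that sustains calcium entry in activated T cells. None of the 7 is confined to lymphocytes.

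The promoters of Eomes and Kcnn4 are shown because these genes differed between lines that the article's choice did not use. That of Batf is shown because it was the member at 0 in most samples. Each window covers 300 bases, most of them before a RefSeq transcript start, in GRCm38.p6 on the plus strand, at chr9:118477939-118478238 for Eomes, chr7:24370013-24370312 for Kcnn4 and chr12:85686470-85686769 for Batf. Capitals mark every match, on either strand, to 4 patterns: TGANTCA, known from JUN, FOS and BATF proteins, an NF-kB pattern of GGG and CC with any 5 bases between, an interferon-regulatory factor (IRF) pattern of GAAA and GAAA with any 2 bases between, and GGGCGG, known from SP1.
Eomes: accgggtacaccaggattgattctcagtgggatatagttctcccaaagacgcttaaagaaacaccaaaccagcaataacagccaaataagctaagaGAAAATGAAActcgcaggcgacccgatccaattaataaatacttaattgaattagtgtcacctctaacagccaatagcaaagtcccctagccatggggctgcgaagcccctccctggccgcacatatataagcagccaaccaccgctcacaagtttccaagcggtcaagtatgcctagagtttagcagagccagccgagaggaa
Kcnn4: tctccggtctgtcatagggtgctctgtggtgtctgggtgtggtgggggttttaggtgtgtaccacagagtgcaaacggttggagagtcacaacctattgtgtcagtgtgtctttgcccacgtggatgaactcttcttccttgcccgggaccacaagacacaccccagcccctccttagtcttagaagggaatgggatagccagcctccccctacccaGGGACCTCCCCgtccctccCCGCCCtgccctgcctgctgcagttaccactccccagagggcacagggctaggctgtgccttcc
Batf: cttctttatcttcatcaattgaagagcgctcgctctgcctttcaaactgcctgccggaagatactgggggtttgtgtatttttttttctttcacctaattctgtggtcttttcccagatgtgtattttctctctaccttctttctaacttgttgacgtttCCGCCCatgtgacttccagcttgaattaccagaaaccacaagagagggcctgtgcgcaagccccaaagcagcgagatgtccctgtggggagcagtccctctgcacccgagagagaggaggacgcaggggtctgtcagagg
The Eomes window held 1 match to the IRF pattern, at bases 97 to 106, and none to the other patterns. The IRF pattern occurred in 3.44% of the 32851 promoter windows of the RefSeq table. The Kcnn4 window held 2 overlapping matches to the NF-kB pattern at bases 218 to 228, which share their letters because the pattern reads nearly alike on both strands, and 1 to GGGCGG, read on the minus strand as CCGCCC. These patterns occurred in 50.8% and 35.7% of all windows. The Batf window held 1 match to GGGCGG only. TGANTCA, found in 7.81% of all windows, was in 0 of the 10 windows of the 7 members. The Pawr window held 36 CpG dinucleotides and 7 matches to GGGCGG, and 1 of the 3 Foxp1 windows held 44 CpG, against a median of 7 CpG over all windows, while Eomes had 10, Batf 9 and Kcnn4 6. A match is a description of the letters and says nothing of binding.

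All members but Batf were counted in every sample, and Batf was near the limit of detection. On the scale of normalized counts per kb of exonic length, which allows genes to be compared, the mean over the 24 samples was 362 for Pawr, 131 for Bcl10, 101 for Kcnn4, 45.4 for Eomes, 27.1 for Foxp1, 6.48 for Prkd2 and 1.16 for Batf. Genes that mark T cells lay below all members but Batf: of 19 such markers none exceeded 10 normalized counts in any sample, 5 (Cd3e, Cd3g, Cd2, Cd8a and Il7r) were at 0 in all 24, and the highest mean per kb was 1.79, for Lat. The summed level of the 19 ranged from 4 to 21 over the samples. Of 8 B and natural killer cell markers 3 were at 0 throughout, and only Cd79a exceeded 10, reaching 11. Of 7 myeloid markers, Adgre1, Itgam and Itgax did not exceed 1, while Cd14, which many cell types express, stood at 227 to 472 and Cd68 at 17 to 63, and the list summed to 287 to 514. The label of a colorectal carcinoma was not met by epithelial markers: Epcam, Krt8, Krt18, Krt19, Cdh1, Cdx1, Cdx2 and Vil1 did not exceed 8 in any sample, Krt20 reached 468 in the line labelled MC38-FUT4, and vimentin (Vim), a mesenchymal filament, stood at 19787 to 33315. In such bulk cultures fewer cells expressing a gene and less RNA of it per cell cannot be told apart.

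**Figure D1:**
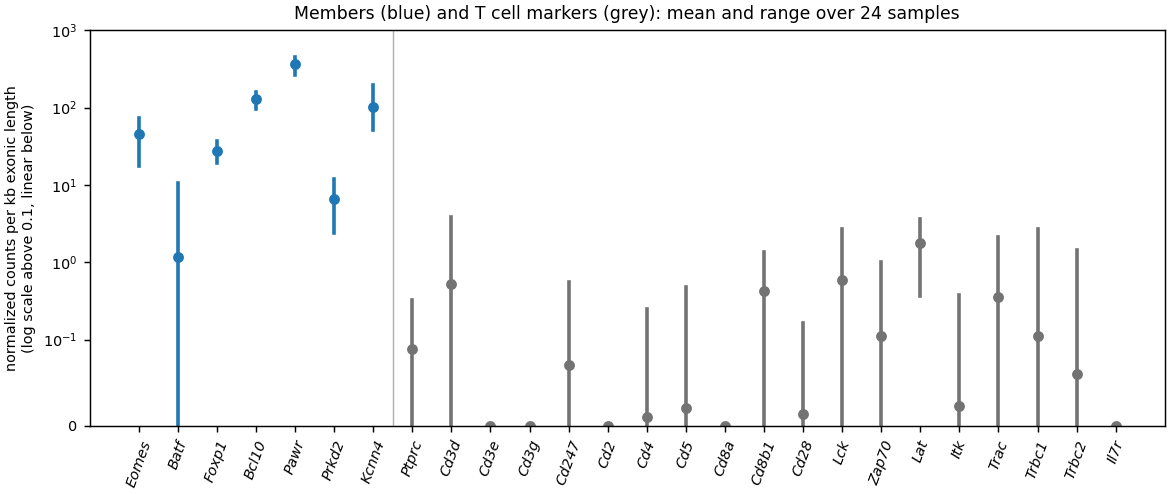
Normalized counts per kb of exonic length (vertical axis, logarithmic above 0.1 and linear below) for the 7 members in blue and 19 T cell markers in grey; points are means and lines the range over 24 samples. All members but Batf lie above all markers in their means, from 6.48 per kb for Prkd2 to 362 for Pawr, while Batf, at 1.16, lies among them.

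Some genes known to act with or beside the members in lymphocytes were also near 0. These 4 were picked from the partner lists after their values were seen. Irf4 did not exceed 2 normalized counts in any sample. Irf8 reached 3, Tbx21 (T-bet, the T-box factor closest to EOMES in T cells) reached 3, and Foxp3, which defines regulatory T cells, reached 5. Other genes of the same lists were well counted, so these do not stand for the lists. Malt1 stood at 303 to 456 and Foxp4 at 904 to 1290 over all samples. Jak3 averaged 12 in MC38-FUT9 and 107 in MC38-MOCK#2.

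The lines used to choose the members are described next. Eomes (chr9:118478212-118486132, plus strand, GRCm38) stood at 242, 240 and 203 in MC38-MOCK#1 and at 131, 149 and 170 in MC38-COSMC KO, a log2 difference of -0.61. Foxp1 (chr6:98925338-99522721, minus strand) went from 401, 431 and 381 to 275, 298 and 289, and Bcl10 (chr3:145922804-145934356, plus strand) from 653, 643 and 737 to 586, 492 and 440. These 3 were lower in every MC38-COSMC KO sample, by 0.61, 0.49 and 0.43 on the log2 scale in turn. Batf (chr12:85686669-85709087, plus strand) had 2, 5 and 15 in MC38-MOCK#1 and 0, 1 and 0 in MC38-COSMC KO, so that its difference rested on a few reads. Pawr, Prkd2 and Kcnn4 lay the other way. Pawr (chr10:108332121-108414240, plus strand) stood at 492, 462 and 498 against 643, 686 and 581 in MC38-COSMC KO. Prkd2 (chr7:16842902-16870464, plus strand) stood at 20, 12 and 12 against 40, 61 and 52, the largest log2 difference of the 3 at 1.75. Kcnn4 (chr7:24370263-24386690, plus strand) stood at 446, 362 and 259 against 583, 599 and 522. The samples did not overlap for any of the 7, while 28.4% of all genes tested showed no overlap between the same 2 lines; as this contrast chose the members, nothing is read from that count.

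The reference line lay at an end of the range for most members. MC38-MOCK#1 had the lowest or the highest mean of the 8 lines for 5 of the 7, which a choice made against this line favours. Pawr was the clearest case. All 21 samples of the other lines, at 558 to 787, lay above the 3 of MC38-MOCK#1. Prkd2 was above the range of MC38-MOCK#1 in 19 of the 21 others, and Kcnn4 in 16. In the parental MC38-WT, Eomes stood at 155, 158 and 161, Pawr at 620, 734 and 627 and Kcnn4 at 507, 512 and 579. All 3 were therefore apart from MC38-MOCK#1 in MC38-WT on the side on which MC38-COSMC KO lay, and the other 4 members overlapped, with 23.4% of all genes not overlapping. Between MC38-COSMC KO and MC38-WT only Foxp1 (lower, by 0.30 on the log2 scale) and Prkd2 (higher, by 0.94) did not overlap, beside 17.3% of all genes. MC38-CMAS KO, which carries no COSMC guide, had Eomes, Foxp1 and Bcl10 below MC38-MOCK#1 and Pawr, Prkd2 and Kcnn4 above it without overlap, 6 of 7 members against 24.3% of all genes. In MC38-DKO, Pawr and Eomes lay above and Batf below MC38-MOCK#1, with 11.2% of all genes not overlapping. The other reference line, MC38-MOCK#2, had Eomes and Batf below MC38-MOCK#1 and Pawr and Prkd2 above it without overlap, beside 28.7% of all genes. These comparisons share the MC38-MOCK#1 samples and are not independent of the choice.

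**Figure D2:**
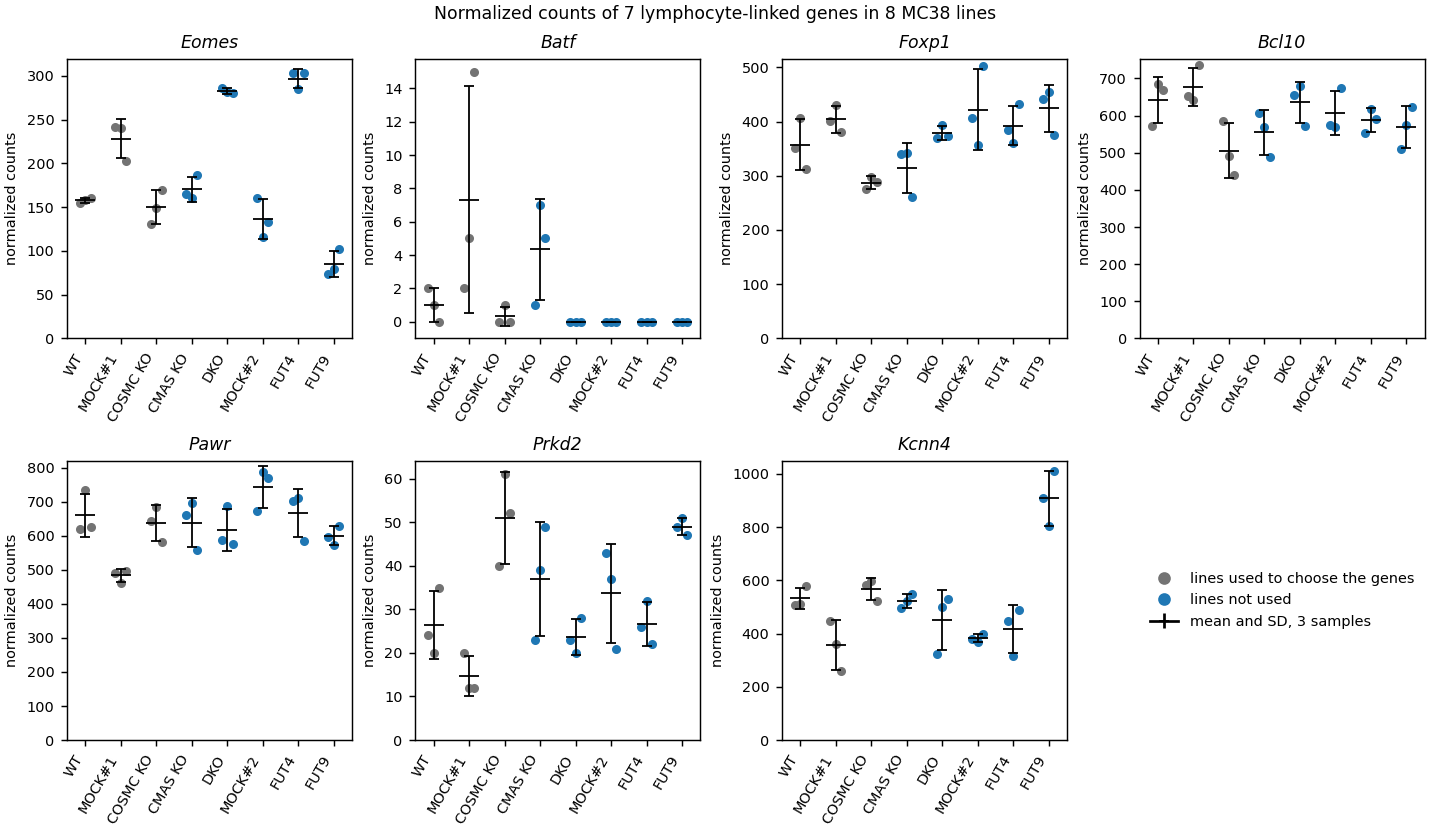
Normalized counts (vertical axes, each from 0) of the 7 members in the 8 lines; points are samples, grey for lines used to choose the genes and blue for the others, and bars are the mean and SD of 3 samples. The axis leaves out the prefix MC38. The mean of Eomes is 297 in the line labelled MC38-FUT4 and 85 in MC38-FUT9, Kcnn4 stands at 805 to 1011 in MC38-FUT9 and at 599 or below elsewhere, and Pawr is lowest in MC38-MOCK#1.

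Over the 5 lines that the article's choice did not use, limma's moderated F test asked whether a member varied among lines beyond the spread of its samples. Eomes (adjusted p = 1.11e-07) and Kcnn4 (adjusted p = 0.000107) passed at an adjusted p below 0.05, 2 of the 6 members tested, while 45.6% of 21045 genes passed. Foxp1 (adjusted p = 0.0634), Prkd2 (0.0697), Pawr (0.136) and Bcl10 (0.503) did not pass by this F test. Batf had too many zeros to be tested. The calls near the threshold turned on single samples. Prkd2 passed without MC38-CMAS KO sample 1 (adjusted p = 0.0241 by limma) or MC38-MOCK#2 sample 3 (0.0275), and Foxp1 without MC38-MOCK#2 sample 2 (0.0286) or MC38-FUT9 sample 3 (0.0464), by the same test.

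Eomes was the member that moved in all tested comparisons, and in opposite directions. In MC38-FUT9 it stood at 74, 79 and 102, below every one of the 21 samples of the other lines, whose lowest value was 116. In MC38-MOCK#2 it stood at 161, 116 and 133, and in the line labelled MC38-FUT4 at 303, 285 and 303. The line labelled MC38-FUT4 thus had the highest line mean of Eomes. Fut9 RNA was also raised there, but to a lower level than in MC38-FUT9. MC38-DKO, with Fut9 at 0 in every sample, overlapped that line in Eomes at 286, 282 and 280. The log2 difference of Eomes from MC38-MOCK#2 was 1.13 ± 0.13 (SE, n = 3 and 3; limma, adjusted p = 0.00249) in the line labelled MC38-FUT4 and -0.68 ± 0.18 (adjusted p = 0.0344) in MC38-FUT9. Expressed as folds of the value plus 1, these were 2.18-fold higher and a ratio of 0.624. The rise kept its call in 15 of 15 alternative settings. The fall lost its call in 7 of 15: its adjusted p by limma was 0.0679 without a variance trend and 0.0881 with the replicate number as a block, and ranged from 0.0543 to 0.127 when MC38-FUT9 sample 1 or 2, or any 1 of the 3 MC38-MOCK#2 samples, was left out. The direct comparison of MC38-FUT9 with the line labelled MC38-FUT4, added after the values were seen, gave -1.81 ± 0.13 (limma, adjusted p = 0.000169). The comparisons with MC38-MOCK#2 share its samples.

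The third tested comparison holds Cmas knocked out in both lines and adds the COSMC guide. Eomes stood at 286, 282 and 280 in MC38-DKO and at 165, 160 and 187 in MC38-CMAS KO. Every MC38-DKO sample was higher, by 0.73 ± 0.10 on the log2 scale (SE, n = 3 and 3; limma, adjusted p = 0.00677). The call was lost without MC38-DKO sample 2 (adjusted p = 0.0546), MC38-CMAS KO sample 1 (0.0501) or MC38-CMAS KO sample 2 (0.0578). This direction was opposite to that of MC38-COSMC KO against MC38-MOCK#1 above, whose difference from it was not tested because that contrast chose the gene. Ordered by line means, Eomes ran from MC38-FUT9 through MC38-MOCK#2, MC38-COSMC KO, MC38-WT, MC38-CMAS KO, MC38-MOCK#1 and MC38-DKO to the line labelled MC38-FUT4. Neighbours in this order did not overlap at 3 of 7 steps, namely after MC38-FUT9, after MC38-CMAS KO and after MC38-MOCK#1. Of the other T-box genes, 3 rose and 1 fell of 12 tested in MC38-FUT9, 1 rose and 0 fell of 11 in the line labelled MC38-FUT4, and 0 of 12 passed in MC38-DKO against MC38-CMAS KO by limma, 2 of them at an unadjusted p below 0.05. Over all genes tested, 24.1%, 16.1% and 6.93% passed in these comparisons in turn. Tbx20, a factor of heart development, was higher in the line labelled MC38-FUT4 (281 against 124 in MC38-MOCK#2, log2 difference 1.17, adjusted p = 0.00148 by limma) and also higher in MC38-FUT9 (0.40, adjusted p = 0.0331). MC38-MOCK#2 was the lowest line for Tbx20 at 113 to 133, and MC38-FUT9 at 159 to 169 lay below all remaining lines, at 181 to 311. A gene of the opposite strand, Gm33460, overlaps Eomes and was listed at 3 to 30; the library kit marks strand, but whether counting used it is not given in the sources used here.

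Kcnn4 was raised in MC38-FUT9. It stood at 910, 805 and 1011 there and at 378, 370 and 400 in MC38-MOCK#2, and the MC38-FUT9 samples lay above all 21 others, which ended at 599. The log2 difference was 1.24 ± 0.10 (SE, n = 3 and 3; limma, adjusted p = 0.000447), or 2.36-fold, and kept its call in 15 of 15 alternative settings. In the line labelled MC38-FUT4, at 448, 315 and 488, Kcnn4 overlapped MC38-MOCK#2 (log2 difference 0.10, 95% interval -0.28 to 0.48). MC38-FUT9 was higher than that line by 1.14 ± 0.17 (limma, adjusted p = 0.00286). MC38-DKO at 322, 498 and 530 overlapped MC38-CMAS KO at 495, 522 and 550. Apart from the step up to MC38-FUT9, no neighbours in the order of line means were separated for Kcnn4.

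The genes that act on KCNN4 were read next. Among 12 tested genes of calcium-activated potassium channels and known regulators of KCNN4, 2 rose and 1 fell in MC38-FUT9. This is close to the share of all genes that passed there, 24.1%, so nothing about the list is read from it. The activity of the channel was not measured. Stim1, the calcium sensor of the endoplasmic reticulum that opens store-operated channels, stood at 1245, 1174 and 1108 against 573, 588 and 639 in MC38-MOCK#2 (log2 difference 0.97, limma, adjusted p = 0.000446). Pik3c2b, the lipid kinase whose product favours KCNN4 activity, stood at 275, 249 and 251 against 161, 112 and 123 (0.98, adjusted p = 0.00433). MC38-MOCK#2 was the lowest line for Pik3c2b, and MC38-MOCK#1, at 215, 229 and 291, overlapped MC38-FUT9. Mtmr6, the phosphatase that removes that lipid, stood at 399, 400 and 382 against 536, 581 and 635 (-0.56, adjusted p = 0.00369). The median of the list was 0.13, against 0.01 over all genes tested. In the line labelled MC38-FUT4 only Pik3c2b passed (0.71, adjusted p = 0.0272), and in MC38-DKO against MC38-CMAS KO 0 of 12 passed by limma, 3 of them at an unadjusted p below 0.05. Of all genes, 16.1% and 6.93% passed in these comparisons.

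Pawr fell slightly in MC38-FUT9, from 674, 787 and 769 in MC38-MOCK#2 to 597, 574 and 630, without overlap, as 36.8% of all genes did. The log2 difference was -0.31 ± 0.08 (SE, n = 3 and 3; limma, adjusted p = 0.0367). It lost its call when any of the 3 MC38-FUT9 samples or MC38-MOCK#2 sample 2 or 3 was left out (adjusted p from 0.0653 to 0.118 by limma), and also without a variance trend (0.112) or with the replicate block (0.0644). MC38-MOCK#2 had the highest mean of the 8 lines for Pawr, and MC38-FUT9 overlapped every other line but MC38-MOCK#1. In the line labelled MC38-FUT4 it stood at 703, 712 and 585 (-0.16, adjusted p = 0.359 by limma) and in MC38-DKO at 588, 688 and 577 against 662, 696 and 558 in MC38-CMAS KO (-0.05, adjusted p = 0.883). Of its partners, Dapk3, a death-associated kinase that PAWR binds, was lower in MC38-FUT9 (-0.46) and higher in the line labelled MC38-FUT4 (0.33), and Prkci, an atypical protein kinase C, was lower in the latter (-0.68). Of the partners tested, 0 rose and 1 fell of 3 in MC38-FUT9, and 1 rose and 1 fell of 4 in the line labelled MC38-FUT4. In MC38-DKO against MC38-CMAS KO 0 of 4 passed by limma, 1 at an unadjusted p below 0.05. Beside these counts, 24.1%, 16.1% and 6.93% of all genes passed in turn. Wt1, the partner for which PAWR was named, was at 0 to 2 in all samples.

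In all, 3 of 6 members tested passed between MC38-FUT9 and MC38-MOCK#2, while 24.1% of all genes passed, 12.1% higher and 12.0% lower. In the line labelled MC38-FUT4 it was 1 of 6 against 16.1% of genes, 8.10% higher and 8.04% lower. Between MC38-DKO and MC38-CMAS KO it was 1 of 7 against 6.93%, 3.15% higher and 3.78% lower. The MC38-FUT9 libraries were deeper than those of MC38-MOCK#2, with 13530204 to 16229893 estimated reads against 8187162 to 12071122, and the part of depth in these differences was not tested. Summed epithelial markers stood at 266 to 476 in the line labelled MC38-FUT4 and 6 to 19 in MC38-MOCK#2, nearly all of it Krt20, with Epcam at or near 0. They stood at 31 to 49 in MC38-CMAS KO and 7 to 14 in MC38-DKO. Summed myeloid markers, mostly Cd14, stood at 288 to 319 in MC38-FUT9 and 331 to 401 in MC38-MOCK#2, and at 341 to 384 in MC38-DKO and 287 to 291 in MC38-CMAS KO. The part of these markers in the differences was not tested.

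**Figure D3:**
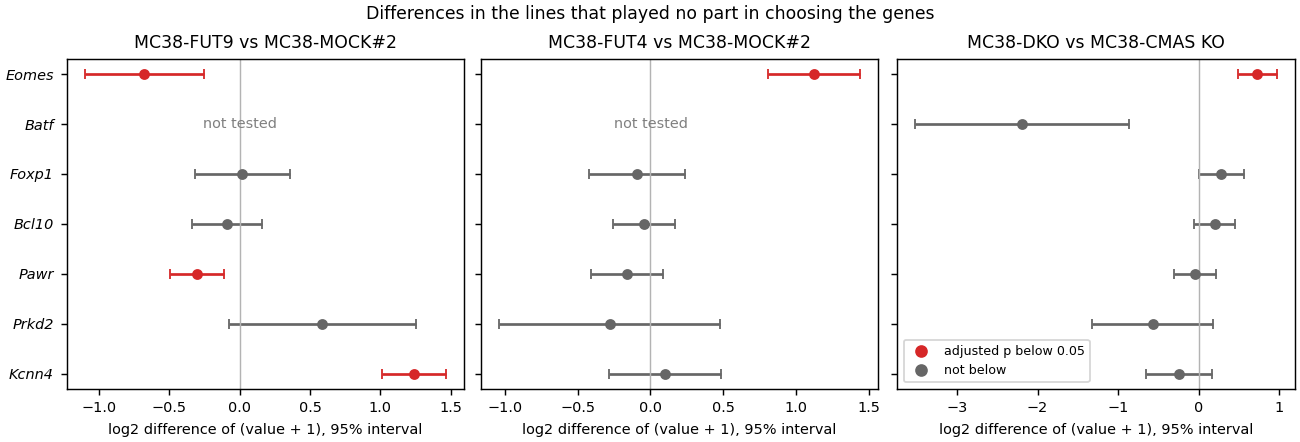
Log2 differences of normalized count plus 1 (horizontal axes) with 95% intervals for the members, 3 samples against 3. The 3 comparisons are of lines that the article's choice did not use. Red marks an adjusted p below 0.05 by limma. Eomes is lower in MC38-FUT9 at -0.68 and higher in the other comparisons at 1.13 and 0.73, and Kcnn4 is higher in MC38-FUT9 at 1.24.

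Prkd2 was low and scattered. It stood at 49, 51 and 47 in MC38-FUT9, at 43, 37 and 21 in MC38-MOCK#2 and at 26, 32 and 22 in the line labelled MC38-FUT4. The MC38-FUT9 samples lay above the other 6, but the difference from MC38-MOCK#2 (0.59 ± 0.28; limma, adjusted p = 0.190) did not pass. The difference from the line labelled MC38-FUT4 did (0.87 ± 0.19; adjusted p = 0.0137), in a comparison where 31.5% of all genes passed and 41.4% did not overlap. MC38-DKO at 23, 20 and 28 overlapped MC38-CMAS KO at 23, 39 and 49. Its relatives Prkd1 and Prkd3 passed in both comparisons with MC38-MOCK#2. Prkd1 stood at 409, 397 and 489 in MC38-MOCK#2 and at 91 to 160 in the lines made with the same activator (log2 difference -1.44 in MC38-FUT9, adjusted p = 0.000333, and -2.06 in the line labelled MC38-FUT4, adjusted p = 0.000247, both by limma). The other 5 lines had Prkd1 at 120 to 223, so MC38-MOCK#2 stood apart above them. The line labelled MC38-FUT4, at 91, 108 and 109, lay below them all, and MC38-FUT9 lay within their range. Prkd3 rose in MC38-FUT9 to 1194, 1225 and 1233 from 747, 801 and 762 (0.66, adjusted p = 0.000645) and fell in the line labelled MC38-FUT4 (-0.46, adjusted p = 0.00436). Prkca, a diacylglycerol-dependent kinase upstream of protein kinase D, rose in MC38-FUT9 by 0.79. Of the 6 genes of this list, 3 rose and 2 fell in MC38-FUT9, 1 rose and 4 fell in the line labelled MC38-FUT4, and 0 passed in MC38-DKO against MC38-CMAS KO by limma, 2 at an unadjusted p below 0.05. The shares of all genes that passed were 24.1%, 16.1% and 6.93% in turn.

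Bcl10 did not differ in any tested comparison. It stood at 511 to 623 in MC38-FUT9, 554 to 617 in the line labelled MC38-FUT4 and 569 to 675 in MC38-MOCK#2, and the 95% intervals of the log2 differences from MC38-MOCK#2 ran from -0.34 to 0.16 and from -0.26 to 0.17. MC38-DKO, at 573 to 679, differed from MC38-CMAS KO, at 489 to 608, by 0.20 (95% interval -0.05 to 0.44). Card10, a scaffold protein that joins BCL10, varied far more. It stood at 2, 3 and 3 in MC38-FUT9, 1, 5 and 4 in the line labelled MC38-FUT4 and 140, 97 and 76 in MC38-MOCK#2, log2 differences of -4.81 (adjusted p = 0.000288) and -4.70 (adjusted p = 0.00140) by limma. Across the knockouts it stood at 85, 115 and 140 in MC38-DKO and 5, 9 and 17 in MC38-CMAS KO (3.45, adjusted p = 0.00324). MC38-MOCK#1, at 62 to 129, lay with the other reference line, and MC38-COSMC KO at 25 to 32 and MC38-WT at 26 to 46 lay between. Malt1, the protease that BCL10 activates, was higher in MC38-DKO than in MC38-CMAS KO at 434, 444 and 431 against 311, 338 and 332 (0.42, adjusted p = 0.0231). Of 11 genes of the CARD-BCL10-MALT1 list tested, 1 rose and 2 fell in MC38-FUT9, 1 rose and 1 fell in the line labelled MC38-FUT4, and 2 rose and 1 fell in MC38-DKO. The shares of all genes that passed were 24.1%, 16.1% and 6.93% in turn.

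**Figure D4:**
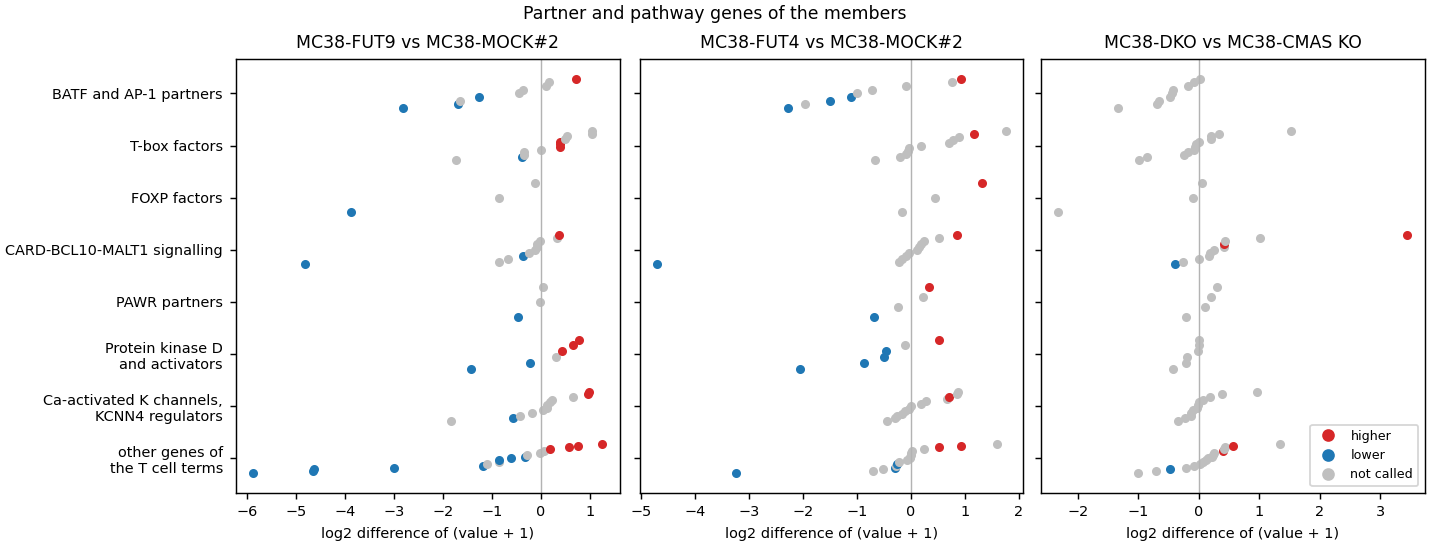
Log2 differences of normalized count plus 1 (horizontal axes) for the tested genes of 8 partner lists (rows) in 3 comparisons; each point is a gene, red higher and blue lower at an adjusted p below 0.05 by limma, grey not called. Card10 is the blue point at -4.81 and -4.70 in the CARD-BCL10-MALT1 row of the first 2 panels and the red point at 3.45 in the last.

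Foxp1 did not pass in any tested comparison either. It stood at 442, 455 and 375 in MC38-FUT9 and at 406, 356 and 503 in MC38-MOCK#2 (log2 difference 0.02, 95% interval -0.32 to 0.35). MC38-DKO at 369, 393 and 373 lay above MC38-CMAS KO at 340, 342 and 261, by 0.28 (95% interval from just below 0 to 0.56; limma, adjusted p = 0.236) and by 0.15 without MC38-CMAS KO sample 3, and 24.5% of all genes showed no overlap between these lines. Foxp2, a related repressor, went from 57, 42 and 63 in MC38-MOCK#2 down to 9, 4 and 0 in MC38-FUT9 (-3.88, adjusted p = 0.0142 by limma) and up to 128, 132 and 144 in the line labelled MC38-FUT4 (1.32, adjusted p = 0.00414). Low values were not particular to MC38-FUT9. MC38-DKO at 14, 2 and 5 overlapped it, and MC38-MOCK#1 stood at 12, 12 and 14. MC38-COSMC KO stood at 23, 25 and 17, MC38-CMAS KO at 51, 43 and 14 and MC38-WT at 85, 92 and 95. Foxp4 did not pass in any of the 3.

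Batf was counted in few samples. It was at 0 in all 12 samples of MC38-DKO, MC38-MOCK#2, MC38-FUT4 and MC38-FUT9 and in 15 of 24 in all. A value of 0 allows up to 3 reads, worth 2.27 to 4.65 normalized counts in those 12 libraries, as far as counting error goes. MC38-CMAS KO stood at 1, 7 and 5, with the sample at 1 under every floor of MC38-DKO. Its mean of 4.33 stood above the mean floor of 3.33 in MC38-DKO, with an adjusted p of 0.0622 by limma. Among MC38-DKO, MC38-MOCK#2, MC38-FUT4 and MC38-FUT9, all at 0, no difference in Batf could be seen at this depth. MC38-MOCK#1, at 2, 5 and 15, was counted in every sample. The sample at 2 lay under every floor of those 12 libraries, so not all of its samples were set apart from those lines. Differences of MC38-MOCK#1 were not tested because it took part in the choice. The AP-1 genes whose products pair with BATF were uneven between harvests. Fos stood at 1658, 3392 and 5883 in MC38-MOCK#2, and at 613, 460 and 334 in MC38-FUT9 (-2.82, adjusted p = 0.00546). Jund was lower in MC38-FUT9 (-1.69, adjusted p = 0.00275) and Junb in the line labelled MC38-FUT4 (-1.50, adjusted p = 0.0267). Fosl1 was higher in both (0.73 and 0.93), with MC38-MOCK#2 the lowest of the 8 lines for it. MC38-MOCK#2 had the highest mean of the 8 lines for Fos, Jund and Junb, and MC38-FUT9 the lowest for Fos and Jund. In MC38-FUT9, Jund at 610 to 823 overlapped MC38-WT at 711 to 1941. Junb in the line labelled MC38-FUT4, at 1209 to 1766, overlapped MC38-MOCK#1 at 1357 to 2414. Of the 9 genes of this list tested, 1 rose and 3 fell both in MC38-FUT9 and in the line labelled MC38-FUT4, comparisons which share MC38-MOCK#2. In MC38-DKO against MC38-CMAS KO 0 passed by limma, 3 at an unadjusted p below 0.05. The shares of all genes that passed were 24.1%, 16.1% and 6.93% in turn.

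The 17 other genes that the article lists under the same T cell terms were chosen, like the members, from MC38-COSMC KO, MC38-MOCK#1 and MC38-WT. The lines counted next were not used there, but the list was set with earlier results of these data known. Its counts are therefore no independent evidence of a direction. In MC38-FUT9, 4 rose and 8 fell, and in the line labelled MC38-FUT4, 2 rose and 3 fell. Il7, an interleukin that keeps T cells alive, stood at 2, 2 and 0 against 133, 122 and 111 in MC38-MOCK#2 (-5.88, adjusted p = 0.000503 by limma). Tcf7, a transcription factor of T cell development, rose there (1.26, adjusted p = 0.000645) and in the line labelled MC38-FUT4 (0.93, adjusted p = 0.00611). In MC38-DKO against MC38-CMAS KO 2 rose, among them Irf1 (0.56), and 1 fell, Stat6 (-0.47). Over all 84 partner genes, 14 rose and 19 fell of 73 tested in MC38-FUT9, 9 rose and 12 fell of 74 in the line labelled MC38-FUT4, and 4 rose and 2 fell of 74 in MC38-DKO. Of all genes tested, 24.1%, 16.1% and 6.93% passed in these comparisons in turn, and the counts of each list are to be read beside these shares. The lists were not matched to all genes for level.

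The differences of the members were set beside those of their neighbours in the genome. Neighbours were tested genes within 2 Mb with a mean of at least 10 over the 24 samples. Around Prkd2, 10 of 28 were higher in MC38-FUT9 than in MC38-MOCK#2 and 0 were lower, with a median log2 difference of 0.22. Of all genes tested, which include those with lower means, 12.1% were higher and 12.0% lower. Against the line labelled MC38-FUT4, 15 of these 28 were higher and 0 lower, with a median of 0.45, beside 0.87 for Prkd2 itself. In that comparison 15.7% of all genes tested were higher and 15.8% lower. Around Kcnn4, which lies on the same chromosome, 14 of 50 neighbours were higher and 2 lower in MC38-FUT9, with a median of 0.17 beside 1.24 for Kcnn4. Against the line labelled MC38-FUT4, 15 of these 50 were higher and 9 lower, with a median of 0.10 beside 1.14 for Kcnn4. The 27 neighbours of Eomes had a median of 0.07 in MC38-FUT9, 0.26 in the line labelled MC38-FUT4 and -0.06 in MC38-DKO against MC38-CMAS KO, where Eomes itself stood at -0.68, 1.13 and 0.73.

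**Figure D5:**
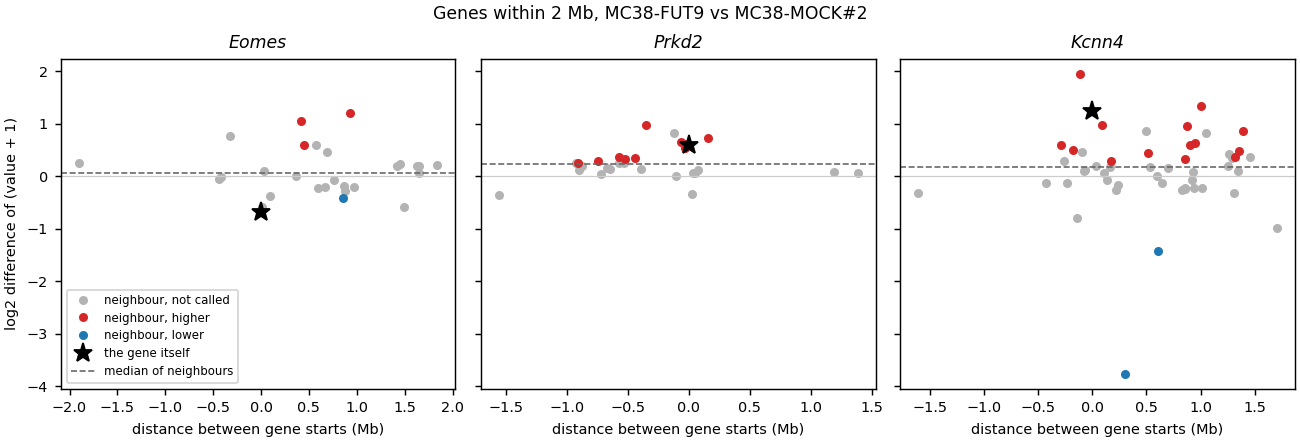
Log2 difference of normalized count plus 1 between MC38-FUT9 and MC38-MOCK#2 (vertical axis) for genes within 2 Mb of Eomes, Prkd2 and Kcnn4, by the distance between gene starts in Mb (horizontal axis); stars are the genes themselves, dashed lines the medians of the neighbours and colours the calls. The neighbours of Prkd2 lie around a median of 0.22 with 10 higher and 0 lower, and Eomes lies below the median of its neighbours. Of all genes tested, 12.1% were higher and 12.0% lower.

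The genes whose pattern over the 24 samples was most like that of each member were taken by Pearson's r of log2 values among 13505 genes with a mean of at least 10. These points are samples of 8 lines that share harvests and depth, so r is a description. For Eomes the closest were Gm14137, Ptprtos and Col7a1 (r = 0.93 for each), for Kcnn4 Arhgap22, B4galnt1 and Foxl1 (0.92, 0.92 and 0.91) and for Prkd2 Dgcr8, Gm42047 and 5830417I10Rik (0.89, 0.88 and 0.87). The other members had looser companions: Trappc6b for Bcl10 (0.81), Pyurf for Foxp1 (0.80), Mxra8 for Pawr (0.78) and Fzd7 for Batf (0.81). The value for Batf, at 0 in 15 samples, rests on the 9 samples in which it was counted.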

How the data were processed

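Poly(A) RNA of 24 cultures was sequenced on a stranded kit. Per the article and the submitters' processing notes, the authors aligned the reads with HISAT2 2.0.4 to GRCm38, sorted them with SAMtools 0.1.19, counted reads per gene with featureCounts (Subread 1.5.0-p3), leaving out reads over several genes, and normalized for library size and composition with edgeR 3.18.1. The deposited values, such scaled counts rounded to whole numbers by the authors, were treated as a score and not as raw counts, so no count model was run. Estimated reads per sample came from the spacing of low values.

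Values were transformed as log2(value + 1). Lines were compared with limma 3.58.1 (R 4.3.3), lmFit and eBayes with a trend, two-sided, Benjamini-Hochberg over all genes tested; genes with more than 4 zeros among 6 samples (10 among 15 in the F test) were left out, and an adjusted p below 0.05 was called. The code was tested on simulated data. Fold changes are on the log2(value + 1) scale and understate low genes. Named genes were the members, the targeted genes, up to 2 partner genes in each direction per list and comparison by size among calls without overlap, and the 3 most alike genes per member; exceptions are stated. Members and lists were chosen with earlier results of these data known. Alternatives were other pseudocounts, filters, scalings, fits, a replicate block and leaving out each sample; MC38-FUT9 against MC38-FUT4 was added after the values were seen. Promoters came from RefSeq (GRCm38.p6), for 7 of 7 members. Counting error is the only error that floors cover. Values of 1 partner gene are not reported here.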

Additional observations from a re-analysis of the deposited data

Results flagged for a closer look

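Eomes was lower with the COSMC knockout label where Cmas was intact (MC38-COSMC KO against MC38-MOCK#1, log2 difference -0.61) and higher where Cmas was knocked out (MC38-DKO against MC38-CMAS KO, 0.73), with every sample on its side in both. Foxp1 stood at -0.49 and 0.28 in these settings. The 0.28 did not pass (limma, adjusted p = 0.236) and was 0.15 without MC38-CMAS KO sample 3. For both genes the difference between the 2 settings was not tested, since the first of them chose the genes. MC38-FUT9 and the line labelled MC38-FUT4 differed from each other by -1.81 for Eomes, 1.14 for Kcnn4 and 0.87 for Prkd2, each past the threshold in limma's direct comparison of the 2 lines.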

How the results depend on the processing

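Kcnn4 in MC38-FUT9 and Eomes in the line labelled MC38-FUT4 kept their calls in 15 of 15 alternatives, and no called member changed sign. Of the 3 members called in MC38-FUT9 against MC38-MOCK#2, 1 remained called without a variance trend, 1 with the replicate block and 1 with an absolute log2 fold change above 1; the member was Kcnn4. All genes called there numbered 5166, and 3430 without a trend and 1845 above a log2 fold change of 1; scaling to the same total gave 5216, with 1979 higher in place of 2596. For the line labelled MC38-FUT4, 3509 genes became 2270 without a trend, 1756 with the block and 1447 above a log2 fold change of 1. For MC38-DKO against MC38-CMAS KO, members called went from 1 to 2 with all 8 lines in the fit (Batf was added, adjusted p = 0.00881 by limma) and to 0 above a log2 fold change of 1, and genes called from 1515 to 2403 with all 8 lines, 692 without a trend, 795 with the block and 591 above a log2 fold change of 1. Leaving out each sample in turn gave 1 to 2 members and 3089 to 5065 genes in MC38-FUT9, 1 to 1 member and 1621 to 3112 genes in the line labelled MC38-FUT4, 0 to 1 member and 231 to 761 genes in MC38-DKO, and 2 to 3 members and 8527 to 9596 genes over the 5 lines. Without MC38-CMAS KO sample 1 the 1 member called in MC38-DKO was Batf (adjusted p = 0.0344 by limma), and without a filter on zeros Batf passed the F test (0.000513), as Foxp1 did with all 8 lines in the fit (0.0347). The fit with all 8 lines takes part of its variance from MC38-MOCK#1, MC38-COSMC KO and MC38-WT, which took part in the choice. Calls gained in it, for Batf and Foxp1, are therefore no independent evidence. It is among the alternatives counted above. Same-numbered samples correlated at -0.11 to 0.19 in their deviations, under 0.1 for some pairs of every comparison, and the main fits did not pair them. Each sample nevertheless correlated best with its own number in 6 of 6, 3 of 6 and 6 of 6 for MC38-FUT9, MC38-FUT4 and MC38-DKO. Same numbers also shared a passage in the MC38-FUT9 and MC38-DKO comparisons, so pairing by harvest remains possible there. With the block, Eomes (adjusted p = 0.0881 by limma) and Pawr (0.0644) in MC38-FUT9 missed the threshold, and no other member's call changed. With 3 samples a line and floors of 2.27 to 5.02 normalized counts, every difference in Batf rested on a few reads.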
